A study of Mus musculus with 16 samples.

Results

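The 10 genes described here encode the enzymes and the carrier that bring long-chain fatty acids into mitochondria and act in fatty acid beta-oxidation there, from the long-chain to the short-chain steps: Cpt1a, Cpt1b, Cpt2, Slc25a20, Acadvl, Acadl, Acadm, Acads, Hadha and Hadhb. They were chosen by name, and the RefSeq accession of each array probe was matched to the gene symbol or a synonym. All 10 were on the array, among 22907 gene symbols. Each was represented by its brightest probe. RNA was measured on 1-colour Agilent arrays in brown adipose tissue (BAT) and gonadal white adipose tissue (gWAT) of Adipo-Pgam1 KO mice (Adipoq-Cre; floxed Pgam1) and of their littermate controls, which carry the floxed Pgam1 allele without Cre. Cre made under the adiponectin promoter is active in adipocytes, and whole depots, which hold other cells too, were measured. All mice were male and of the strain C57BL/6NCrSlc, and 16 weeks old except replicate 4 of the Adipo-Pgam1 KO mice, given as 14 weeks in both tissues. Each of the 4 groups held 4 arrays, described in the labels as independent samples.

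In beta-oxidation, a fatty acid joined to coenzyme A is shortened from its carboxyl end, and the electrons released feed the respiratory chain. Long chains cross the inner mitochondrial membrane only as carnitine esters: a carnitine palmitoyltransferase 1 on the outer membrane makes the ester and is inhibited by malonyl-CoA, the carnitine-acylcarnitine translocase exchanges it inward, and carnitine palmitoyltransferase 2 restores the CoA form. Cpt1a is the form known from liver, Cpt1b that of muscle and brown fat, where burning of fatty acids provides the heat made through Ucp1. Cpt1c, the brain form, is not counted among the 10 genes.

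Promoter sequences were read from RefSeq (GRCm38.p6) for 9 of the 10 genes, all except Cpt1b, which had no entry. The 250 bases before the gene start are shown for Cpt1a, the gene that moved against the others in BAT. Also shown are Acadvl and Acadm, which hold a nuclear receptor hexamer, and Hadhb, whose window is partly shared with Hadha. Capitals mark that hexamer (AGGTCA on either strand) or a CCAAT box.
Cpt1a, chr19:3323051-3323300, plus strand: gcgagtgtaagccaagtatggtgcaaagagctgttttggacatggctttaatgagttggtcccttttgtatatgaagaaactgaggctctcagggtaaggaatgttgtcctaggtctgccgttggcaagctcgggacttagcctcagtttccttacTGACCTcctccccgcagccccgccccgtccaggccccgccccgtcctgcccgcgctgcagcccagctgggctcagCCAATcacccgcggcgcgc
Acadvl, chr11:70015429-70015678, minus strand: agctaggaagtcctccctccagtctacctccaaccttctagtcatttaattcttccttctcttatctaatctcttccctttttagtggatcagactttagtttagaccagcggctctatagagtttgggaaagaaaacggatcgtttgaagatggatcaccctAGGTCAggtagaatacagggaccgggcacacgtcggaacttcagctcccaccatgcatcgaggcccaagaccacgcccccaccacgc
Acadm, chr3:153944644-153944893, minus strand: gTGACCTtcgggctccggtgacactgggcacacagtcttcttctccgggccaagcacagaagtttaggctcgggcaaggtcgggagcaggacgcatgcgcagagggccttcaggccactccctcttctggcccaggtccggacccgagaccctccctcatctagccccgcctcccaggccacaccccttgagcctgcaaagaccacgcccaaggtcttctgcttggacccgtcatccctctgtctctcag
Hadhb, chr5:30155003-30155252, plus strand: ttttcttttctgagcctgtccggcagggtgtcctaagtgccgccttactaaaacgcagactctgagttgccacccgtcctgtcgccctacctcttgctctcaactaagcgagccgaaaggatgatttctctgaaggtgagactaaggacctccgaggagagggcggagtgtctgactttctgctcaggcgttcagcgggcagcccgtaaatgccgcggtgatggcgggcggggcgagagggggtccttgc
Hadha and Hadhb lie head to head, with 272 bases between their starts. Of the bases shown for Hadhb, 228 also lie in the window of Hadha, on the opposite strand. The bases nearest the start of Hadha are not shown. This hexamer, the core bound by receptors of the PPAR and ERR families, was found in 3 of the 9 windows of 300 bases (250 before and 50 after the start), and in 16.3% of all 32851 promoters in the table. The CCAAT box was found in the window of Cpt1a alone among the 9, and in 37.4% of all promoters. The letters TNAAGGTCA, the extended hexamer of the estrogen-related receptors, were in none of the 9 windows (1.28% of all promoters), nor were the direct repeat AGGTCANAGGTCA (0.0396%) or the E box CACGTG (7.15%). All motifs were searched on both strands, and the hexamer is part of the extended site and of the repeat. A match is a match of letters only.

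Values are given as log2 of the signal intensity over the 75th percentile of the array, so a difference of 1 is a doubling. All probes of the 10 genes were well above background on all 16 arrays and none was saturated. The 16 arrays lay on 3 slides. In BAT, 3 controls were on a slide of their own, and in gWAT 3 controls were on another slide than the KO-labelled arrays, so values within the shared slide rest on 1 control array. The 75th percentile itself was 401 to 451 in BAT of controls and 650.2 to 916 in BAT from Adipo-Pgam1 KO mice. Pgam1, the targeted gene, stood at 7.94, 7.93, 8.07 and 7.82 in BAT of controls, where the KO arrays had 6.20, 6.13, 6.03 and 6.43. In gWAT it stood at 5.07, 5.15, 5.67 and 5.56 in controls and at 6.50, 6.42, 6.38 and 5.95 in the arrays that the labels give as Adipo-Pgam1 KO (the KO-labelled arrays), which is against the label. Directions for gWAT are therefore given by the label. The log2 change of Pgam1 in gWAT was 0.95 (standard error 0.19, adjusted p = 0.0139 in limma). It was 0.75 with the slide as a block, which rests on 1 control. With the replicate number as a block it did not pass (adjusted p = 0.0514 in limma).

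**Figure D1:**
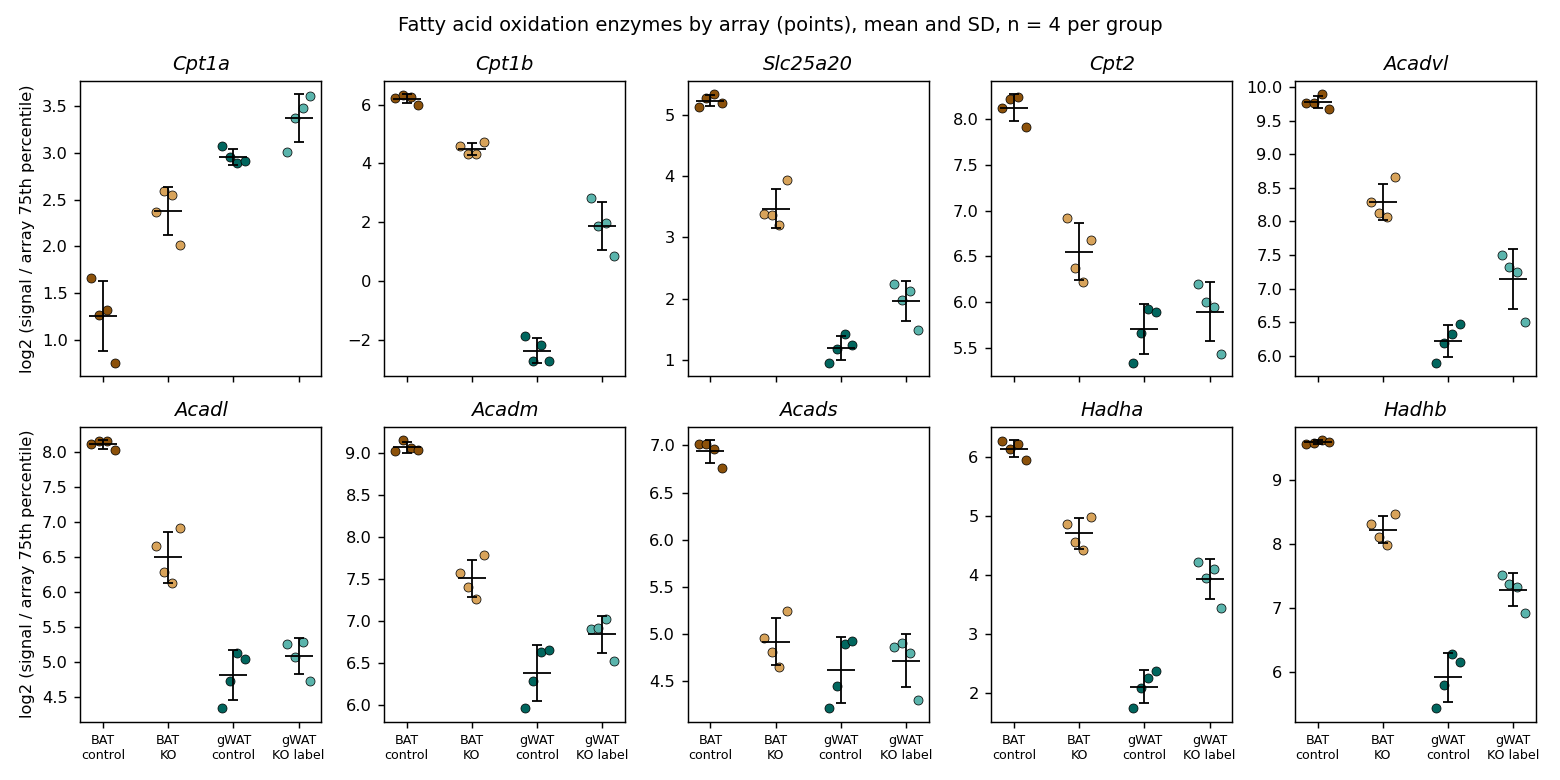
Log2 signal over the array's 75th percentile (y axis, a separate scale for each gene) in the 4 groups (x axis) for the 10 fatty acid oxidation genes; points are arrays, bars the mean and SD of 4 arrays. In 9 genes BAT of controls is highest and gWAT of controls lowest, whereas Cpt1a is lowest in BAT of controls.

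The order of the group means was the same for 9 of the 10 genes: BAT of controls, BAT of Adipo-Pgam1 KO mice, gWAT labelled Adipo-Pgam1 KO, and gWAT of controls. Cpt1a alone had another order, with gWAT labelled Adipo-Pgam1 KO highest, then gWAT of controls, BAT of Adipo-Pgam1 KO mice and BAT of controls. Neighbours in this order overlapped or did not pass the test for Acads in the last 3 groups, and for Cpt2, Acadl, Acadm and Cpt1a between the gWAT groups. BAT of Adipo-Pgam1 KO mice was not tested against gWAT of controls, which are neighbours for Cpt1a.

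Comparison of the tissues in littermate controls asked where this pathway is expressed. In BAT, 9 of the 10 genes were higher than in gWAT, by 2.32 to 8.55 on the log2 scale, and Cpt1a was lower. All 10 passed an adjusted p of 0.05 in limma with groups that did not overlap, where 64.7% of all 14301 genes tested passed, 35.4% as higher and 29.3% as lower, and 60.8% did not overlap. The largest difference was that of Cpt1b, which stood at 6.23, 6.31, 6.26 and 5.98 in BAT and at -1.86, -2.70, -2.17 and -2.69 in gWAT. All BAT arrays were far above all gWAT arrays, and the difference of 8.55 (standard error 0.20, adjusted p = 7.42e-08 in limma) was a 375-fold higher signal in BAT, the 9th largest rise among all genes tested. Slc25a20 and Hadha were each higher by 4.03 (standard errors 0.13 and 0.16), Hadhb by 3.68 (0.18) and Acadvl by 3.56 (0.14). Among the acyl-CoA dehydrogenases, which open each round and differ in the chain length they accept, the difference was 3.56 for the very-long-chain enzyme Acadvl, 3.29 for the long-chain enzyme Acadl, 2.68 for the medium-chain enzyme Acadm and 2.32 for the short-chain enzyme Acads. The differences of these 4 probes were not tested against each other, and their order depended on the scaling. With quantile normalization they were 2.53 for Acadvl, 2.64 for Acadl, 1.69 for Acadm and 1.81 for Acads. Of all genes called, 54.8% were higher in BAT, but 70.9% with Actb and Rplp0 scaling and 42.4% with spike-in scaling, and all 10 genes kept their direction and call under both. Cpt1a was lower in BAT by 1.71 (standard error 0.18, adjusted p = 6.64e-05 in limma).

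Deletion of Pgam1 was then compared with littermate controls in BAT. In BAT from Adipo-Pgam1 KO mice 9 of the 10 genes fell, to between 0.246 and 0.387 of the control signal, and Cpt1a rose 2.19-fold. Thus the rest of the carnitine shuttle, all 4 acyl-CoA dehydrogenases and both subunits of the trifunctional protein were lower, and the gene that rose was the one with a lower signal in BAT than in gWAT of controls. All 10 genes passed in limma and had groups that did not overlap, where 61.5% of the 14277 genes tested passed, 34.0% as lower and 27.5% as higher, and 57.1% did not overlap. The median log2 change was -1.57 for the 10 genes and -0.08 for all genes tested. Of all genes called in BAT, 44.8% were higher, but 79.9% with spike-in scaling and 17.7% with Actb and Rplp0 scaling. The 9 genes fell and Cpt1a rose past the threshold under every scaling tried, but the size of the fall depended on the scaling. The log2 changes of the 9 genes were -2.02 to -1.37 in the main fit and -1.63 to -0.61 with quantile normalization. They were -1.48 to -0.83 with spike-in scaling and -2.61 to -1.96 with Actb and Rplp0 scaling.

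**Figure D2:**
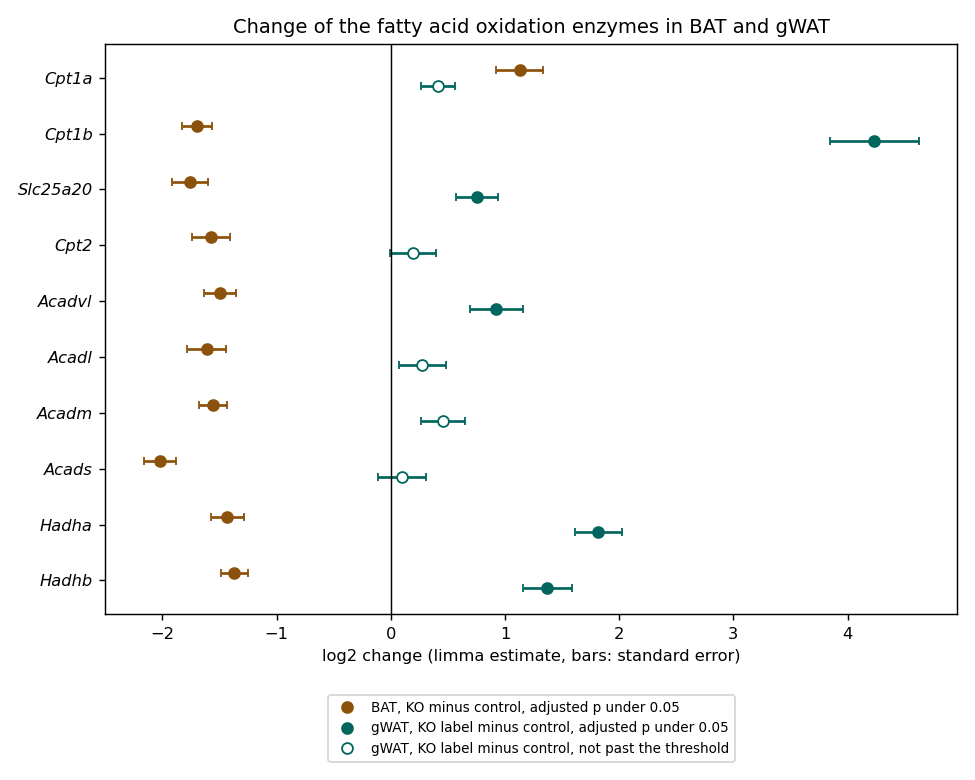
Log2 change (x axis, limma estimate with its standard error as bars) of the 10 genes (y axis) in Adipo-Pgam1 KO mice against littermate controls, in BAT and in gWAT by label, with 4 arrays per group; filled points passed an adjusted p of 0.05. In BAT 9 genes lie between -2.02 and -1.37 and Cpt1a at 1.13, and in gWAT Cpt1b lies at 4.23, Hadha at 1.82 and Hadhb at 1.37.

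In the carnitine shuttle, Cpt1a stood at 1.66, 1.26, 1.32 and 0.75 in BAT of controls and at 2.36, 2.59, 2.55 and 2.02 in BAT from Adipo-Pgam1 KO mice. All 4 KO arrays were above all controls, with a log2 rise of 1.13 (standard error 0.21, adjusted p = 0.00144 in limma). It was 0.54 (adjusted p = 0.0391 in limma) with Actb and Rplp0 scaling, which shifted the median of all genes to -0.67, and 1.67 with spike-in scaling, which shifted it to 0.46. Cpt1b stood at 4.60, 4.33, 4.32 and 4.73 in BAT from Adipo-Pgam1 KO mice, below all controls. Its log2 change was -1.70 (standard error 0.13, adjusted p = 1.91e-05 in limma), which left it far above its level in gWAT of controls. Slc25a20, the translocase, changed by -1.76 (standard error 0.16) and Cpt2 by -1.58 (standard error 0.16). A second probe of Cpt2 changed by -1.88.

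Acads stood at 7.01, 7.01, 6.96 and 6.76 in BAT of controls and at 4.96, 4.81, 4.65 and 5.24 in BAT from Adipo-Pgam1 KO mice. The controls lay close together and the change of -2.02 (standard error 0.14, adjusted p = 1.28e-05 in limma) was the largest among the 10 genes. The other dehydrogenases changed by -1.61 (Acadl, standard error 0.17), -1.56 (Acadm, 0.12) and -1.49 (Acadvl, 0.14). Hadha and Hadhb, the alpha and beta subunits of the trifunctional protein that carries out the later steps for long chains, changed by -1.43 (standard error 0.15) and -1.37 (standard error 0.12), and the second probe of Hadhb by -1.64. Among the genes that fell, replicate 4 of the Adipo-Pgam1 KO mice, given as younger, was the highest KO array for 8 of the 9, and Cpt2 was highest in replicate 1. Within the shared slide, with its 1 control, the changes ranged from -1.84 to -1.23 for the 9 genes and Cpt1a changed by 1.63, and all 10 passed in limma with the slide as a block.

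In the same BAT arrays, markers of other cells moved, where 34.0% of all genes tested fell and 27.5% rose. Of 10 macrophage markers 9 rose and none fell, and their summed signal, in units of the 75th percentile, was 28.0 to 39.9 in controls and 103 to 152 in Adipo-Pgam1 KO mice. All 8 markers of adipocytes in general fell (median log2 change -1.05), and their summed signal was 3118 to 3477 in controls and 1214 to 1671 in Adipo-Pgam1 KO mice. Of 12 brown adipocyte markers 9 fell and none rose, and all 12 were well above background on all BAT arrays. All 5 fibroblast markers rose, and none of 5 endothelial markers passed. Of 15 skeletal muscle markers 8 were tested in BAT, and 3 rose (Acta1, Tnni2 and Ryr1) and 1 fell (Myl1). In BAT of controls Myl1 stood at 5.30 to 5.59, and 6 of the 15 markers, among them Myh4 and Ckm, were well above background on no array. The summed signal of the 15 was 44.4 to 51.1 in controls, mostly from Myl1, and 152, 8.70, 31.6 and 13.5 in Adipo-Pgam1 KO mice. Replicates 1 and 3 of these stood apart, with the fast myosin gene Myh4 at 5.02 and 2.80 against -5.84 and -4.94 in replicates 2 and 4. In a comparison chosen after seeing the data that left out both arrays, all 10 oxidation genes kept their direction and call in BAT, with Cpt1b at -1.66, Cpt1a at 1.05 and the other 8 between -1.91 and -1.30. The part of these cells in the changes of the oxidation genes was not tested, and in whole tissue fewer cells of a type and less RNA per cell cannot be told apart.

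In gWAT, the 10 genes were compared between the KO-labelled arrays and littermate controls. Here 5 of the 10 were higher and passed the test: Cpt1b, Hadha, Hadhb, Acadvl and Slc25a20. In gWAT, 17.8% of the 14146 genes tested passed, 9.97% as higher and 7.85% as lower, and the groups did not overlap in 24.2%, against 5 of the 10 genes. The estimates of the other 5 were 0.46 (Acadm), 0.41 (Cpt1a), 0.28 (Acadl), 0.19 (Cpt2) and 0.096 (Acads), with adjusted p between 0.0862 and 0.783 in limma. The median log2 change was 0.61 for the 10 genes and 0.05 for all genes tested. Of the genes called in gWAT 55.9% were higher, but 71.0% with median centring and 93.8% with spike-in scaling, which shifted the medians of all genes to 0.17 and 0.44. With spike-in scaling all 10 genes passed as higher, by 0.49 to 4.62.

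Cpt1b stood at 2.83, 1.86, 1.98 and 0.84 in the KO-labelled arrays, and every one of them was above every control. The log2 change of 4.23 (standard error 0.39, adjusted p = 0.00103 in limma) was an 18.8-fold higher signal and the 8th largest rise among all genes tested in gWAT. It remained past the threshold under each alternative, including the slide as a block (4.57, adjusted p = 0.0251 in limma). Hadha stood at 1.75, 2.09, 2.26 and 2.37 in gWAT of controls and at 4.23, 3.96, 4.10 and 3.45 in the KO-labelled arrays. The groups were well apart, and Hadha rose by 1.82 (standard error 0.21, adjusted p = 0.00219 in limma). Its partner Hadhb stood at 5.43, 5.80, 6.28 and 6.16 in controls and at 7.52, 7.38, 7.33 and 6.92 in the KO-labelled arrays. The change was 1.37 (standard error 0.21, adjusted p = 0.0063 in limma), and 1.72 by the second Hadhb probe.

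Acadvl was higher by 0.92 (standard error 0.23, adjusted p = 0.0288 in limma) and Slc25a20 by 0.75 (standard error 0.19, adjusted p = 0.0277 in limma). For Acadvl the lowest array labelled Adipo-Pgam1 KO, replicate 4 at 6.50, lay next to the highest control at 6.47. Each of these 2 genes lost its call when any of 6 of the 8 arrays was left out, among them replicates 1 and 2 of the controls and replicates 1, 2 and 3 of the KO-labelled arrays in both cases, and in addition control replicate 4 for Slc25a20 and control replicate 3 for Acadvl. Without those arrays the change was 0.66 to 0.77 for Slc25a20 (adjusted p = 0.0503 to 0.0788 in limma) and 0.80 to 0.96 for Acadvl (adjusted p = 0.0566 to 0.0800 in limma). Without replicate 1 of the KO-labelled arrays, Cpt1a passed as higher, by 0.53 (adjusted p = 0.0452 in limma). For Acadl, Acadm and Acads the groups overlapped. Acads stood at 4.21, 4.45, 4.89 and 4.92 in controls and at 4.86, 4.90, 4.80 and 4.30 in the KO-labelled arrays, and its estimate turned negative under quantile normalization, as did that of Cpt2. The second probe of Cpt2 gave 0.60. With the slide as a block, which compares the 4 KO-labelled arrays with 1 control, Cpt1b alone passed, and the estimates were 1.56 for Hadha (adjusted p = 0.0672 in limma) and 1.13 for Hadhb (adjusted p = 0.148 in limma). In replicate 4 of the KO-labelled arrays, 9 of the 10 genes had the lowest value of their group, and Cpt1a the highest. Replicate 1 of the controls had the lowest control value for 8 of the 10 genes, and the highest for Cpt1a and Cpt1b.

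The marker counts in gWAT stand beside 9.97% of all genes tested that rose and 7.85% that fell. Brown adipocyte markers were also higher in the KO-labelled gWAT arrays: of 12, 9 were tested, 6 rose and 1 fell. Their summed signal was 34.1, 66.0, 70.0 and 47.4 in controls and 358, 238, 237 and 144 in the KO-labelled arrays, where replicate 1 was highest and replicate 4 lowest, as for Cpt1b. Of the defining markers, Ucp1 exceeded background on 3 of the 4 KO-labelled arrays and on 0 of the controls, and Zic1 on none of the gWAT arrays. Of the 7 white adipocyte markers 6 were tested and 3 fell. Macrophage markers summed to 68.4 to 92.9 in controls and 75.2 to 239.5 in the KO-labelled arrays, where replicate 4 was highest, and 3 of 10 rose. Skeletal muscle markers, of interest because muscle also makes Cpt1b, summed to 17.5 to 43.5 in controls and 40.6 to 67.9 in the KO-labelled arrays, where Ckm, Myh1 and Myh4 were well above background on none. Of 15 markers 9 were tested in gWAT, none rose and Myl1 fell. Acta1, a muscle actin, at 1.33, 2.82, 4.40 and 4.56 in controls and 5.79, 5.41, 5.85 and 4.88 in the KO-labelled arrays, did not pass (log2 change 2.20, adjusted p = 0.0504 in limma), though its groups did not overlap. Epididymis markers summed to 4.16 in replicate 1 of the controls and 4.01 in replicate 3 of the KO-labelled arrays, and to 0.76 to 1.4 in the other gWAT arrays. The part of these cells in the gWAT changes was not tested.

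Genotype and tissue were then fitted together, with the change in gWAT minus that in BAT. The change differed between the tissues for all 10 genes in limma, where 48.3% of 14817 genes did so, 27.4% with a higher and 21.0% with a lower value in gWAT. Of all genes called, 56.6% had the higher value in gWAT, but 83.7% with Actb and Rplp0 scaling. The difference was 5.93 for Cpt1b (standard error 0.44, adjusted p = 1.70e-06), the 2nd largest of all genes tested, followed by Hadha at 3.25 (0.26) and Hadhb at 2.74 (0.25), and 1.77 to 2.51 for the other 6 genes that fell in BAT. For Cpt1a it was -0.72 (standard error 0.26, adjusted p = 0.0339 in limma), meaning a larger rise in BAT than in gWAT. That call for Cpt1a was lost with median centring, with spike-in scaling and with Actb and Rplp0 scaling (-0.18), and when any of 8 arrays was left out: replicates 2 and 4 of the BAT controls, replicates 2 and 3 of BAT of Adipo-Pgam1 KO mice, replicates 1 and 2 of the gWAT controls, and replicates 1 and 2 of the KO-labelled gWAT arrays. Without those arrays it was -0.72 to -0.55 (adjusted p = 0.0505 to 0.0715 in limma), and without both BAT arrays high in muscle genes it was -0.64 (adjusted p = 0.115 in limma).

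In Adipo-Pgam1 KO mice the tissues lay closer together than in controls, as the interaction states in other terms. All 4 BAT arrays of this comparison were on one slide and all 4 gWAT arrays on another, scanned on another day, so tissue and slide cannot be told apart within it. BAT was higher than gWAT by 2.62 for Cpt1b (standard error 0.36) and by 0.65 to 1.51 for the other 7 called genes above gWAT, and Cpt1a was lower by 0.99 (standard error 0.17). Acads, with a difference of 0.20 (standard error 0.18, adjusted p = 0.377 in limma), did not pass, so 9 of the 10 genes were called, where 46.1% of 14446 genes were, 23.4% as higher and 22.7% as lower. Of all genes called, 50.8% were higher in BAT, but 30.8% with Actb and Rplp0 scaling. Cpt2 lost its call (0.65, adjusted p = 0.0295 in limma) under 7 alternatives and when any of 5 arrays was left out, replicates 1 and 4 of BAT and replicates 2, 3 and 4 of gWAT (0.50 to 0.69, adjusted p = 0.0506 to 0.0754 in limma). Hadha lost its call with the slide as a block over all 16 arrays (1.12, adjusted p = 0.053 in limma).

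Because the forms encoded by Cpt1a and Cpt1b catalyse the same step, the difference of their log2 signals was taken within each array. It is unaffected by scalings that shift a whole array by a constant, but not by quantile normalization (-2.56 in BAT and 3.95 in gWAT), and only its change between groups can be read, since the 2 probes are not comparable in level. The difference, Cpt1b minus Cpt1a, was 4.57, 5.05, 4.94 and 5.23 in BAT of controls and 2.24, 1.74, 1.78 and 2.71 in BAT from Adipo-Pgam1 KO mice. It was -4.94, -5.66, -5.06 and -5.61 in gWAT of controls and -0.19, -1.51, -1.50 and -2.77 in the KO-labelled gWAT arrays. The 4 groups did not overlap, and the groups of Adipo-Pgam1 KO mice lay between those of the controls.

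**Figure D3:**
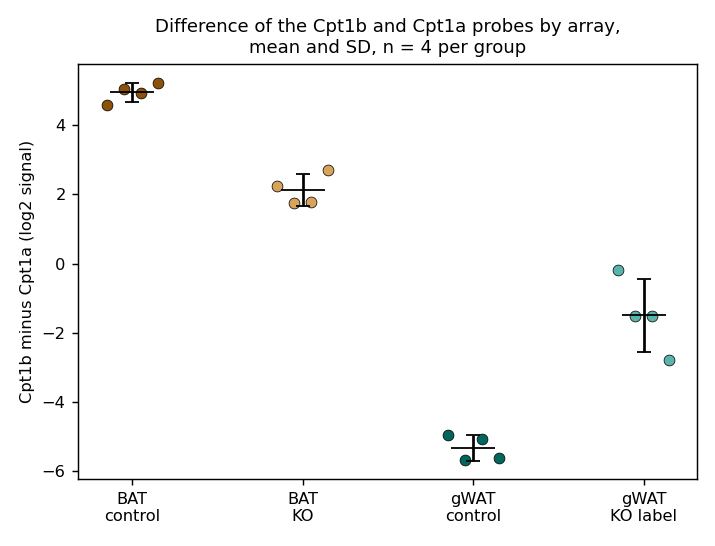
Log2 signal of the Cpt1b probe minus that of the Cpt1a probe (y axis) on each array (points) in the 4 groups (x axis), with the mean and SD of 4 arrays. The mean was 4.94 in BAT of controls, 2.12 in BAT from Adipo-Pgam1 KO mice, -5.31 in gWAT of controls and -1.49 in the KO-labelled gWAT arrays.

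In BAT the difference changed by -2.83 (standard error 0.27), a 7.09-fold shift from Cpt1b toward Cpt1a. In gWAT it changed by 3.82 (standard error 0.56), a 14.1-fold shift from Cpt1a toward Cpt1b by the label. Between tissues it differed by 10.26 in controls and by 3.61 in Adipo-Pgam1 KO mice. Each of these comparisons gave p = 0.0286 in a two-sided exact permutation test (adjusted p = 0.0286 over 5 comparisons), the smallest possible with 4 arrays a group. Between tissues the change differed by 6.65 (standard error 0.62, p = 4.08e-04 over the 4900 arrangements of genotype within tissue in an exact permutation test, adjusted p = 0.00204). That p is the smallest these arrangements allow. The permutation takes genotype to have no effect in either tissue, so it does not by itself test whether the changes in BAT and gWAT are equal. It also shuffles genotype in each tissue separately, as if no mouse gave both tissues, which the labels do not settle. If mice were shared, fewer arrangements would exist and the smallest possible p would be larger. On the shared slide alone the change of the difference was -3.11 in BAT and 4.11 in gWAT, each against 1 control.

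Over the 16 arrays, the genes whose centred log2 profile lay nearest to that of Cpt1a, among 14782 compared, were Limd2, Cnn2, Sfxn3, Il3ra and Axl, with a root mean square difference of 0.22 to 0.25 against a range of 2.86 for Cpt1a. For Cpt1b, with a range of 9.02, they were Cidea, Acot11, Otop1, Cox7a1 and Txlnb, at 0.54 to 0.97. Cidea, Otop1 and Cox7a1 are also in the brown adipocyte marker list. Cpt1b overlaps the read-through transcript Gm44502 in the RefSeq annotation. Overlaps are also annotated for Cpt1a (Gm36532), Acadl (Gm15793 and Gm27934), Acadvl (Mir324) and Hadhb (Mir1960). Which of the overlapping transcripts each probe measured was not tested.

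The enzymes and carriers around these 10 genes were taken from lists of names. These lists share genes with the marker lists: Slc27a2 and Ppargc1a are also brown adipocyte markers, and Fabp4 and Pparg markers of adipocytes in general. In BAT of Adipo-Pgam1 KO mice, all 14 further matrix and auxiliary oxidation enzymes fell (median log2 change -1.57, against -0.08 for all genes tested). The acyl-CoA dehydrogenase family members Acad11, Acad12 and Acad10 changed most, by -2.89, -2.00 and -1.84. Of 10 tested genes of fatty acid activation and transport 7 fell and 1 rose (median -0.75). The transporter Slc27a2 changed by -3.31 (adjusted p = 6.53e-06, but 0.0769 with all 16 arrays in one limma fit), Slc27a1 by -2.13 and the synthetase Acsl1 by -1.70, whereas Acsl4, a synthetase with a preference for arachidonic acid, rose by 1.52.

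**Figure D4:**
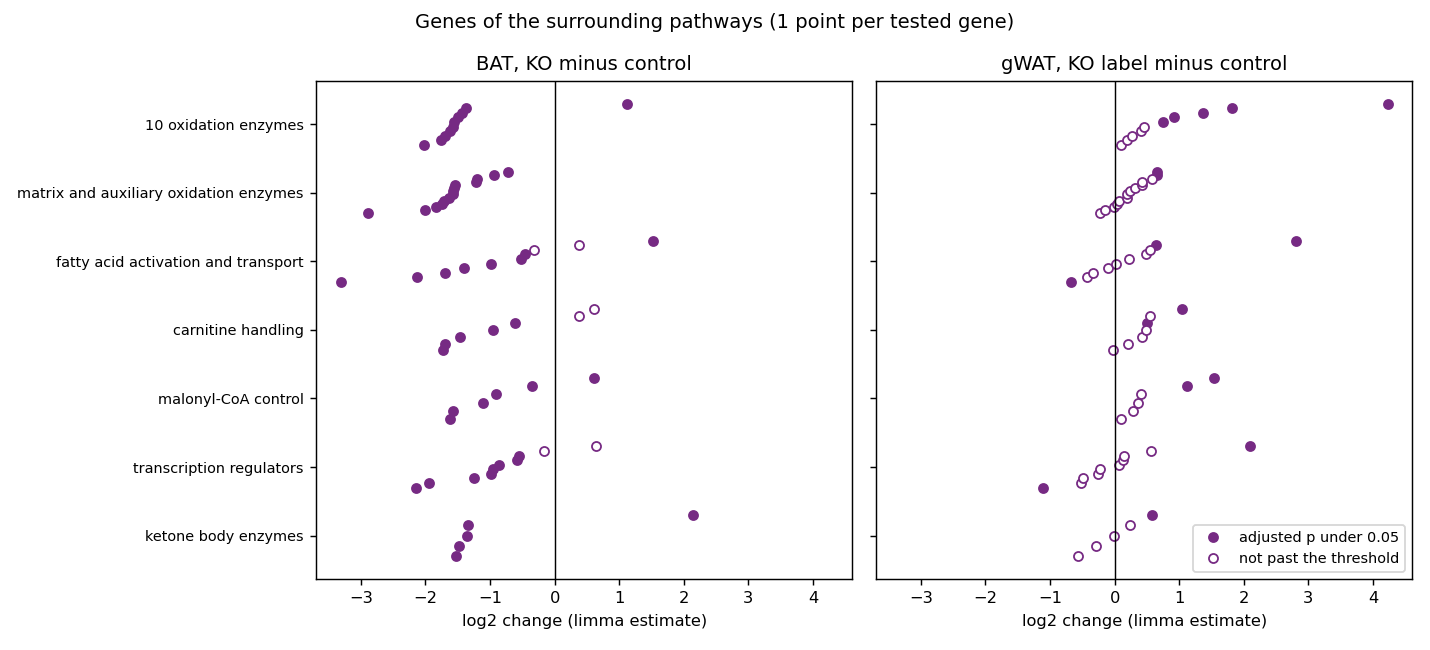
Log2 change (x axis, limma estimate) of each tested gene (points) of the 10 oxidation genes and of 6 surrounding lists (y axis) in BAT and in gWAT by label; filled points passed an adjusted p of 0.05. In BAT all 14 matrix and auxiliary enzymes lie below 0 and are filled, and in gWAT 2 of them are filled.

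These counts and those that follow stand beside 34.0% of all genes tested that fell in BAT and 27.5% that rose. Of 7 tested genes of carnitine handling 5 fell in BAT, with Crat, the carnitine acetyltransferase, at -1.73 and Aldh9a1, of carnitine synthesis, at -1.70. Cpt1c had an estimate of 0.60 (adjusted p = 0.11 in limma) and was dim on all arrays, at -3.28 to -0.81. In the malonyl-CoA list, whose product inhibits the Cpt1 forms, 5 of 6 fell and 1 rose. The carboxylase Acacb, which makes malonyl-CoA, changed by -1.62 and the decarboxylase Mlycd, which removes it, by -1.57. Prkaa2, the catalytic alpha 2 subunit of AMPK, rose by 0.61, but by 0.02 with Actb and Rplp0 scaling. Fasn, which consumes malonyl-CoA, and the carboxylase Acaca changed by -1.10 and -0.91, but after quantile normalization by -0.082 and -0.34, where neither passed, and Acaca did not pass without the BAT arrays high in muscle genes (-0.83, adjusted p = 0.0595 in limma). Of 10 transcription regulators and their targets 8 fell, among them the nuclear receptor Ppara (-2.14), its coactivator Ppargc1b (-1.94) and Esrrg (-1.25). Ppargc1a alone of this list had a higher estimate, which did not pass. Its mean log2 signal was 3.86 in the BAT controls and 4.50 in the BAT KO arrays, and the groups overlapped. Of 5 ketone body enzymes 4 fell and 1 rose, with Acat1, which joins acetyl-CoA units, at -1.53.

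In gWAT by label, the counts stand beside 17.8% of all genes tested that passed, against 61.5% in BAT. Of the 14 matrix and auxiliary enzymes 2 rose, Acaa2 (0.66) and Etfdh (0.66), with a median of 0.21 over the list against 0.05 for all genes tested. Of 10 tested activation and transport genes 2 rose and 1 fell, with Fabp3, the heart-type fatty acid binding protein, at 2.81 (standard error 0.60, adjusted p = 0.0175 in limma) and Acsl4 at 0.64. In carnitine handling 2 of 7 rose, Slc22a4 (1.04) and Aldh9a1 (0.51), and in the malonyl-CoA list 2 of 6, Acaca (1.54) and Prkaa2 (1.12). Of the 10 regulators Pdk4, a kinase that restrains pyruvate oxidation, rose by 2.09 and Nrip1, a corepressor of nuclear receptors, fell by 1.12. Of 5 ketone body enzymes 1 rose. With the slide as a block none of these 10 named genes passed. The estimate fell by over 1.5 times for Fabp3 (to 1.23), Pdk4 (1.02), Acaca (0.94) and Slc22a4 (0.60), whereas those of Nrip1 (-1.07) and Acsl4 (0.67) were about as large as before. In addition, leaving out single arrays ended the calls of all except Acaca and Nrip1. For Fabp3 these were replicates 1 and 3 of the KO-labelled arrays (2.76 and 2.56), for Pdk4 replicate 1 (1.89), and for the others 6 or 7 of the 8 arrays.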

How the data were processed

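RNA of 16 samples had been hybridized to 1-colour Agilent arrays, read with Feature Extraction 10.7.1.1 per the labels. The scanner files the authors deposited give background-subtracted signal intensity for each spot, and other columns mark outlier spots and spots well above background. The deposited value table holds a linear ratio, close to the intensity over the 75th percentile of its array, and was used as an alternative. Outlier spots were dropped, spots of a probe averaged, intensities divided by the array's 75th percentile and put on the log2 scale. RefSeq accessions gave 32989 probes a symbol, and the brightest probe stood for a gene. A gene was tested if well above background on all 4 arrays of a group. Groups were compared with limma 3.58.1 (R 4.3.3; lmFit and eBayes) on the 8 arrays of a comparison, and on all 16 for the interaction, with Benjamini-Hochberg adjustment and a threshold of 0.05. The within-array difference of Cpt1b and Cpt1a was compared by exact permutation. The controls were littermates, but nothing says which arrays share a litter or extraction, and litter was not modelled. The p-values therefore measure the spread between these samples. The labels give 100 ng of RNA per array, and the methods another amount. Alternatives were other scalings (quantile, median, spike-in, Actb and Rplp0), normexp background correction (offset 50, on the median spot signal), filters, the mean of probes, slide and replicate blocks, the methods' t-test and leaving out arrays. Named genes were the 10 genes, Pgam1, Cpt1c, up to 3 called genes with groups apart per list and comparison, and the 5 nearest profiles to Cpt1a and Cpt1b. Further genes named were chosen after their values were seen. One gene that this rule would name is not reported here. The 10 genes, the lists and the tests were chosen with earlier results of these data known. The fits were tested on simulated data in which 200 genes were changed, far fewer than were called in BAT. False calls were 2.52% to 9.43% of calls over the 5 comparisons, highest for BAT. Of log2 changes of 1, 43% to 65% were recovered, and of changes of 2, 84% to 95%.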

Additional observations from a re-analysis of the deposited data

Results flagged for a closer look

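The response to genotype differed between BAT and gWAT for each of the 10 oxidation genes, by the interaction term in limma, as the change in gWAT by label minus the change in BAT. The difference was 5.93 on the log2 scale for Cpt1b, 3.25 for Hadha, 2.74 for Hadhb, 2.51 for Slc25a20, 2.42 for Acadvl, 2.12 for Acads, 2.01 for Acadm, 1.89 for Acadl and 1.77 for Cpt2, with adjusted p from 1.70e-06 to 0.000133 in limma. For Cpt1a it was -0.72 (adjusted p = 0.0339 in limma). For the within-array difference of Cpt1b and Cpt1a it was 6.65 (adjusted p = 0.00204 in an exact permutation test). That test takes genotype to have no effect in either tissue, and the tissues to come from different mice, which the labels do not settle. Directions in gWAT are given by the label, and Pgam1 was higher in the KO-labelled arrays, by 0.95 in the main fit and 0.75 with the slide as a block.

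In 1 of the 44 sets of 4 arrays that were examined for a sample far from the rest, Acads in the KO-labelled gWAT arrays, replicate 4 stood at 4.30, below the other arrays at 4.80 to 4.90. Chance flags about 1 in 20 such sets. Its mouse is given as 14 weeks old and the others as 16 weeks.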

How the results depend on the processing

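The counts of called genes among the 10 did not change under any alternative in BAT (10) or between tissues in controls (10). They ranged from 7 to 9 between tissues in Adipo-Pgam1 KO mice, where the lowest value came with the slide as a fixed block over all 16 arrays, and from 9 to 10 for the interaction. Without both BAT arrays high in muscle genes, chosen after seeing the data, they were 10 in BAT, 8 between tissues in Adipo-Pgam1 KO mice and 9 for the interaction. In gWAT, 5 genes were called, but 10 with spike-in scaling, 3 without a filter on dim probes, 3 with the replicate number as a block, 3 in the methods' t-test with Benjamini-Hochberg adjustment (6 at their unadjusted threshold), 1 with the slide as a fixed block, and 3 to 5 when single arrays were left out. Over all genes tested in gWAT, 2521 were called, but 1384 with median centring, 5836 with spike-in scaling, 1138 without the filter, 4038 with all 16 arrays in one fit, 184 with the slide block, 1087 with the replicate block and 1618 in the methods' t-test, and with the slide block 1782 in place of 6661 between tissues in Adipo-Pgam1 KO mice and 3264 in place of 7161 for the interaction. In gWAT the estimate of Acads turned from 0.096 to -0.095 under quantile normalization, -0.10 with normexp background correction and -0.21 with the slide block, and ranged from -0.040 (without control replicate 1) to 0.24 when single arrays were left out, and that of Cpt2 from 0.19 to -0.054, -0.13 and -0.0011 under those 3 settings. The within-array difference of Cpt1b and Cpt1a kept its direction under every alternative tried. With the replicate number as pairing, its changes of -2.83, 3.82, 10.26 and 3.61 had p = 0.125, the smallest that 16 sign patterns of 4 pairs allow in an exact test. The labels do not say whether a number marks the same mouse in both tissues, and the correlations left pairing unsettled: the correlation of deviations was over 0.1 for 1 of 4 numbers in BAT, 1 of 4 in gWAT, and 3 and 2 of 4 between tissues in controls and in Adipo-Pgam1 KO mice. The causes of these shifts were not tested. The number of arrays limits the precision, and the single control on the shared slide limits every value within a slide.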
